A study of Mus musculus with 4 samples.

Results

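The collagen gene family was examined in mouse bone marrow mesenchymal stem cells, which are adherent stromal cells. The family was taken as every gene whose symbol is Col, a number, a and a number, and where a gene had several probe sets the brightest over the 4 arrays stood for it. This gave 44 of 22180 named genes: 11 fibrillar collagens, 9 of the basement membrane and its zone, 9 FACIT collagens, 6 beaded, 4 transmembrane and 5 others. There were 4 groups of 1 array each. Snail1-WT cells, with the transcriptional repressor Snail1 intact, were left untreated or given the cytokine TGF-b1 for 2 h, and Snail1-KO cells, which lack it, were handled in the same way. How the knockout was made, whether a culture came from 1 clone or several animals, and the dose are not stated in the labels.

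Collagens are trimers of chains that wind into a helix built on a repeated glycine. Fibrillar collagens (types I, II, III, V, XI, XXIV and XXVII) form the fibres of connective tissue. Type IV makes the sheet of basement membranes, FACIT collagens sit on the surface of fibrils, and type VI forms beaded filaments near cells. TGF-b1 is a classic inducer of collagen genes in fibroblasts and stromal cells. The chains are hydroxylated and folded inside the cell, and the ends of the procollagens are then trimmed by proteinases.

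Values are RMA values on a log2 scale, on which a difference of 1 is 2-fold. With 1 array per group no difference has a replicate check and no test was made. As a measure of error, a yardstick SD for a difference between 2 arrays was estimated from how far the responses of both genotypes disagreed among the 500 genes nearest in level. It holds true disagreement between the responses and leaves out whatever both arrays of a genotype share. It ran from 0.08 for the brightest to 0.23 for dim collagen genes, with a median of 0.17. In the labelled knockout, Snai1 itself measured 5.09 and 5.34, against 6.69 and 7.63 in Snail1-WT cells, with the yardstick at 0.18. Of 11 measured stromal markers 9 passed the filter on low values that is described next, and the median over the 11 was between 9.20 and 9.60 on the 4 arrays. The marrow stroma marker Lepr was low, with a mean of 2.97, and of 7 haematopoietic markers 4 passed, the highest with a mean of 6.14. In bulk RNA, fewer cells of a type and less RNA per cell cannot be told apart.

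The 60% of genes with the highest mean were kept, 13308 in all, with means of at least 4.51. Of the 44 collagen genes 37 passed. Col4a3, Col4a4, Col4a6, Col14a1, Col19a1, Col6a4 and Col6a5 did not, with means from 4.03 for Col6a5 to 4.50 for Col4a6, just outside, while Col15a1 at 4.54 and Col9a1 at 4.60 were just inside. The kept genes spanned a wide range. Col1a1 and Col1a2, the chains of type I collagen of bone and skin, had means of 12.1 and 11.3, and the type III gene Col3a1 10.9. Col12a1 had 10.7, Col6a1 10.6 and Col6a2 9.81. Of the genes of cartilage collagens, Col2a1, Col9a1, Col9a2, Col9a3, Col10a1 and Col11a2 had means between 4.60 and 6.37, and Col11a1 7.56. Levels of different probe sets are not on a common scale of abundance, so these figures say which signals were bright, not which chain was most abundant.

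**Figure D1:**
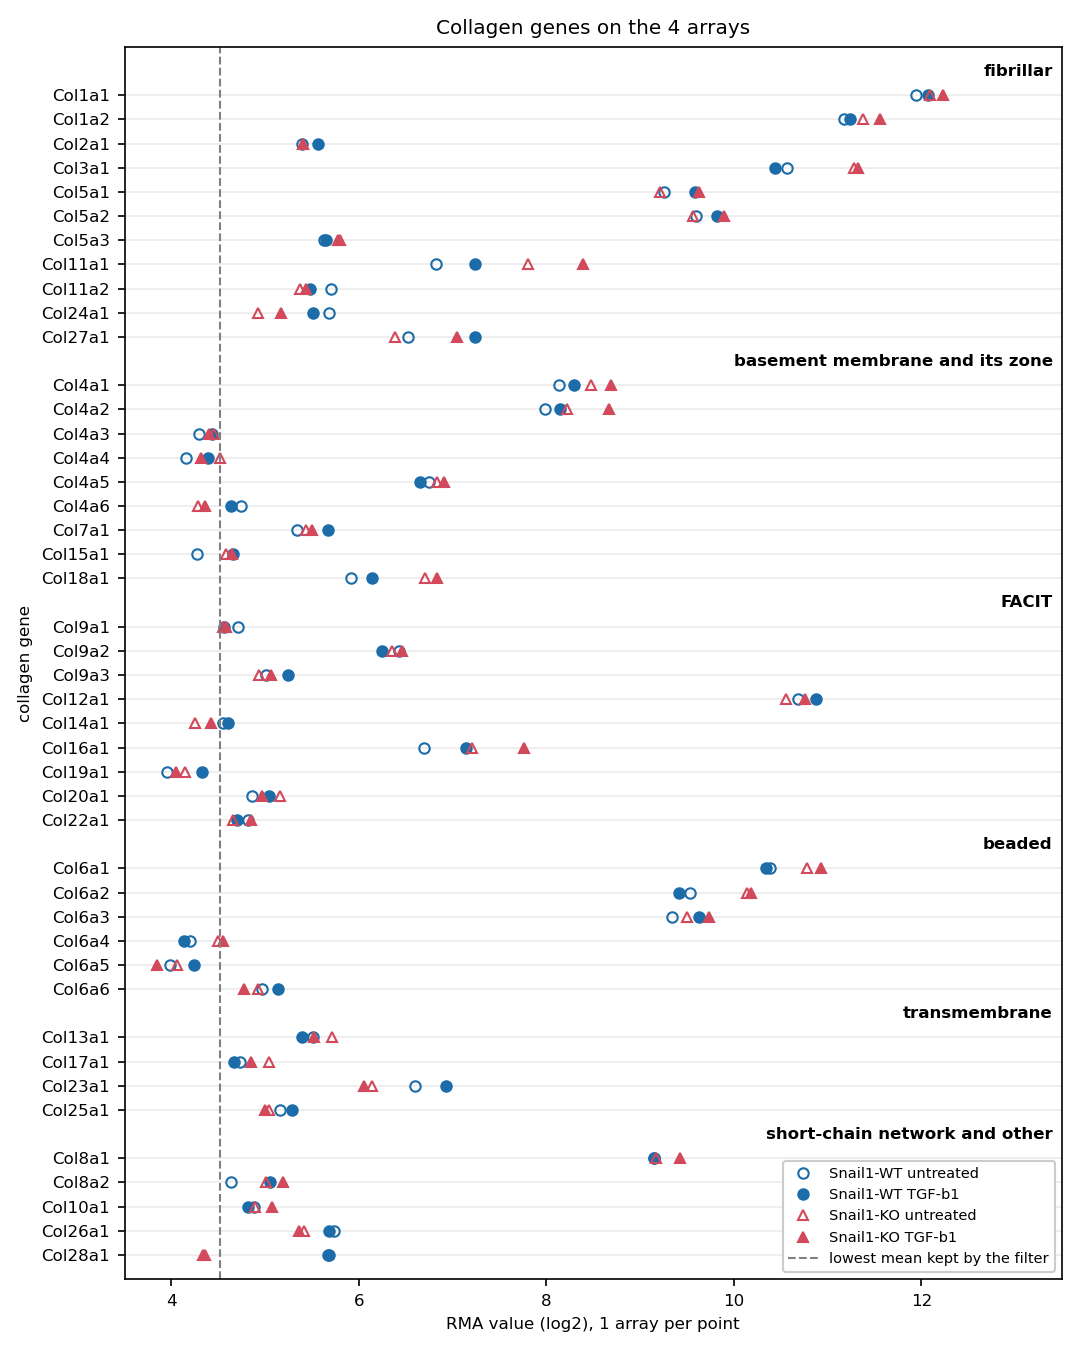
RMA values (log2, horizontal axis) of the 44 collagen genes, grouped by kind, with 1 point per array: circles are Snail1-WT and triangles Snail1-KO cells, open untreated and filled with TGF-b1. Points of Col28a1 and Col11a1 separate by genotype, those of Col27a1 by treatment, and 7 genes have means below the dashed line at 4.51.

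Whether 2 h of TGF-b1 moved the family was asked first within each genotype. No collagen gene was 2-fold apart in either response, where 0.984% of all kept genes were so in the Snail1-WT pair and 1.31% in the Snail1-KO pair. The shift was small but mostly upward. Over the 37 kept members the median was 0.12 in both genotypes, against -0.03 and -0.02 over all kept genes. The responses share no array. In both of them 17 of the 37 members were higher and 4 lower, while of all kept genes 29.5% were higher and 38.0% lower in both. The type I genes moved by little: Col1a1 differed by 0.12 and 0.14, and Col1a2 by 0.07 and 0.18, the Snail1-WT value first. A second and dimmer probe set of Col1a2 gave -0.26 and -0.05, and the mean of both sets -0.10 and 0.06, so its direction is not settled. Col3a1 differed by -0.13 and 0.05.

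The collagen gene with the largest response was Col27a1, a fibrillar collagen best known from cartilage. It measured 6.52 in untreated and 7.23 in treated Snail1-WT cells, and 6.38 and 7.04 in Snail1-KO cells. Both treated arrays lay above both untreated ones, and the share of all kept genes with that order is not given here. The responses were 0.71 and 0.66, with the yardstick at 0.14. Col27a1 was the only member at least 1.5-fold higher in Snail1-WT cells, where 2.48% of all kept genes were. In Snail1-KO cells Col27a1 and Col11a1 were so, 2 of 37 against 3.31% of all, but Col11a1 was at the threshold and measured 0.573 with cyclic loess scaling, short of 1.5-fold. No kept member was 1.5-fold lower, against 1.89% and 1.83% of all kept genes. The 250 bases before the start of a listed transcript of Col27a1, which is not the outer start of the gene in RefSeq, are shown because it had this response, with the sequence CAGAC, which SMAD proteins can bind, in capitals on either strand (GTCTG is its reverse complement). They lie at chr4:63215162-63215411 on the + strand (RefSeq, GRCm38.p6).
Col27a1: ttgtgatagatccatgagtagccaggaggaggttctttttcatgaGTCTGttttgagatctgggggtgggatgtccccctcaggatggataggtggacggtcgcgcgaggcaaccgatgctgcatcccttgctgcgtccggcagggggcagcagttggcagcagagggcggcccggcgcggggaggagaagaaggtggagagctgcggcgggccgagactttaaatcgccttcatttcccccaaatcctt

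CAGAC occurred once in that window, starting 205 bases before the start. The promoter table held 38 windows of 35 collagen genes. Of these windows 17 held CAGAC on either strand, or 44.7%, against 42.2% of all 32851 windows of that length. The motif was thus about as frequent before collagen genes as before genes in general.

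A second rule, chosen after the values were seen, called a gene that exceeded 2 yardsticks in the same direction in both responses. It named 7 of the 37 members as higher, against 5.91% of all kept genes, and 0 as lower, against 4.97%. The rule favours bright probe sets, so it was also read within the 40% of genes with the highest mean. There 7 of 19 members were higher and 0 lower, beside 8.12% and 6.81% of all such genes. The 7 genes were Col27a1, Col11a1, Col5a1, Col5a2, Col16a1, Col12a1 and Col6a3. At 3 yardsticks the first 3 and Col16a1 were left, 4 of 37 against 3.46% of all kept genes.

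Among these were both common chains of type V collagen, which is built into type I fibrils and helps to start them. Col5a1 measured 9.25 and 9.58 in untreated and treated Snail1-WT cells, and 9.21 and 9.63 in Snail1-KO cells. Its responses were 0.33 and 0.42, with the yardstick at 0.08, and its dimmer probe set gave 0.33 and 0.24. Col5a2 measured 9.59 and 9.82, then 9.56 and 9.89, so that its responses were 0.23 and 0.33. For both genes the treated arrays were the higher ones in each genotype and the genotypes lay close together. The third type V gene, Col5a3, was dim and differed by 0.02 and -0.03.

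Col11a1 encodes a chain of type XI collagen, the cartilage counterpart of type V. It measured 6.82 and 7.24 in Snail1-WT cells and 7.80 and 8.39 in Snail1-KO cells, untreated and treated. The responses were 0.42 and 0.59, with the yardstick at 0.12, and all 4 arrays were ordered by genotype first and treatment second. Col11a2 showed no such response, at -0.22 and 0.06.

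Of the FACIT collagens, Col16a1 measured 6.69 and 7.15 in Snail1-WT cells and 7.21 and 7.76 in Snail1-KO cells. Its responses were 0.46 and 0.55, with the yardstick at 0.13. Col12a1, whose protein lies along type I fibrils, measured 10.69 and 10.87, then 10.56 and 10.76, with responses of 0.19 and 0.20. Responses of the other 5 kept FACIT genes lay between -0.18 and 0.24 in Snail1-WT and between -0.19 and 0.19 in Snail1-KO cells, with no member over 2 yardsticks in both.

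The beaded type VI filaments are built from the products of Col6a1, Col6a2 and Col6a3 in their common form. Of these, Col6a3 was higher after TGF-b1, from 9.34 to 9.63 in Snail1-WT and from 9.50 to 9.74 in Snail1-KO cells. The responses were 0.29 and 0.24, against a yardstick of 0.08. Col6a1 differed by -0.04 and 0.14 and Col6a2 by -0.12 and 0.04. The 3 chains thus did not move alike within 2 h.

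In the basement membrane group, the head-to-head neighbours Col4a1 and Col4a2, which encode the chains of the common type IV network, were slightly higher in both genotypes. Col4a1 measured 8.13 and 8.29 in Snail1-WT and 8.48 and 8.69 in Snail1-KO cells, with responses of 0.16 and 0.21. Col4a2 measured 7.98 and 8.15, then 8.22 and 8.67, with responses of 0.16 and 0.45. With yardsticks of 0.11 and 0.10, neither passed 2 yardsticks in both responses. Col18a1, the source of the fragment endostatin, differed by 0.22 and 0.12, and the anchoring fibril gene Col7a1 by 0.33 and 0.06. None of the 4 transmembrane collagens was higher in both responses, and Col13a1 (-0.11 and -0.19) and Col17a1 (-0.07 and -0.19) were lower in both, within 1 yardstick of about 0.21.

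**Figure D2:**
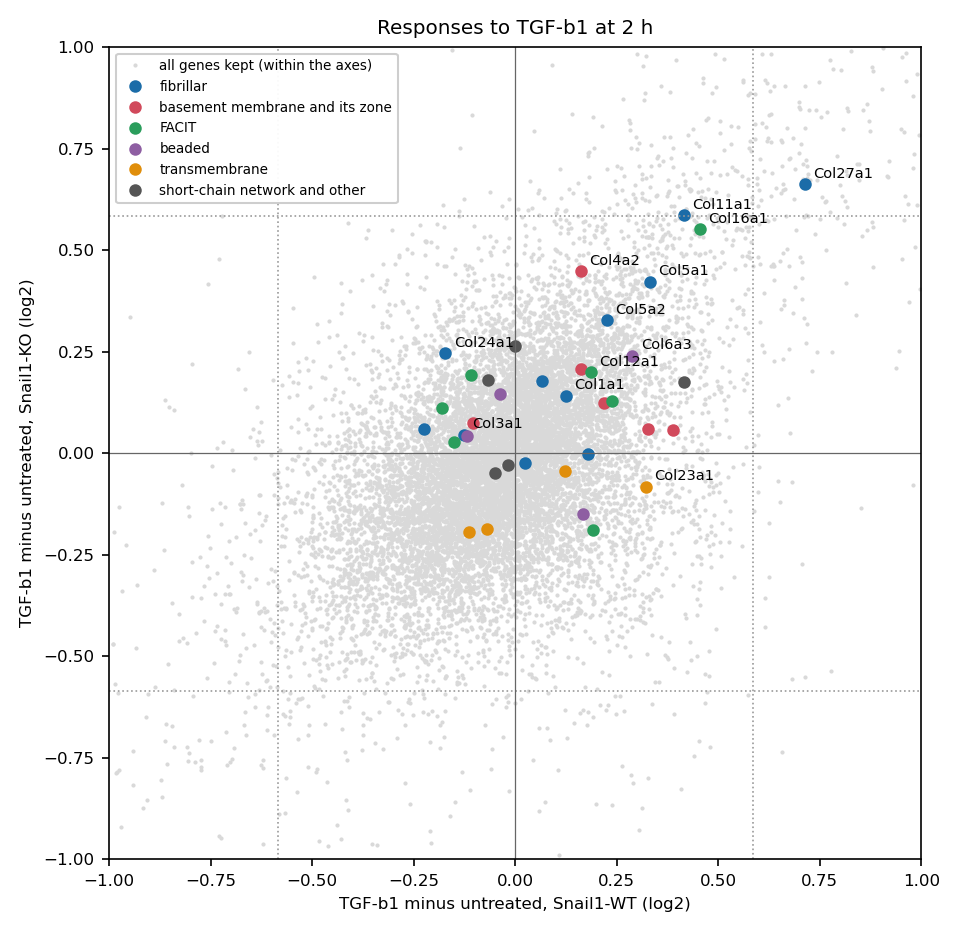
Response to TGF-b1 (treated minus untreated, log2) in Snail1-WT cells (horizontal) and Snail1-KO cells (vertical), for the 37 kept collagen genes coloured by kind. Grey points are the kept genes within the axes, and genes with larger responses are not drawn. Dotted lines mark 1.5-fold. Col27a1 lies at 0.71 and 0.66, and no collagen gene lies in the lower left beyond 1.5-fold.

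Snail1-KO cells were then compared with Snail1-WT cells, once in the untreated and once in the treated pair of arrays. These pairs share no array, but a difference between the 2 cell populations that has nothing to do with Snail1 would recur in both. Below, arrays of the genotypes are at times said not to overlap. The share of all kept genes for which this held is not given here, and the 2 arrays of a genotype differ in treatment. Markers of cell types differed between the genotypes too. The osteoblast marker Alpl, 1 of 6 measured osteoblast markers to pass the filter, differed by -1.78 and -1.82. Phex, an osteoblast marker that did not pass, differed the other way, by 1.19 and 1.09. Of 5 smooth muscle markers, all kept, 3 were higher in both pairs and 1 lower. The lower gene was Cnn1, at -0.90 and -0.76, while the median over the 5 was 0.11 and 0.05. Of the 9 stromal markers kept, 4 were lower by over 2 yardsticks in both pairs (Pdgfra, Pdgfrb, Eng and Cxcl12) and 2 higher (Prrx1 and Vim). Their part in the collagen differences was not tested. The collagens lay on both sides. Col28a1 was lower in Snail1-KO cells by over 2-fold and Col11a1 higher by about 2-fold. Col3a1, Col18a1, Col6a2, Col16a1 and Col6a1 were also higher in both pairs, and Col23a1 and Col24a1 lower. The main type I gene Col1a1 differed by 0.14 and 0.16, and the type V genes Col5a1 (-0.04 and 0.05) and Col5a2 (-0.03 and 0.07) differed by less than 1 yardstick. Over the 37 kept members the median was 0.08 untreated and 0.12 treated, against -0.0003 and -0.002 over all kept genes. In both pairs 18 of 37 were higher and 10 lower, beside 36.0% and 36.4% of all kept genes.

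At 2-fold, 1 of 37 members was called in the untreated pair (Col28a1) and 2 in the treated pair (Col28a1 and Col11a1), where 1.57% and 1.70% of all kept genes were. Col28a1 was so in both pairs, as were 1.03% of all. At 1.5-fold, 4 members were higher untreated (Col11a1, Col18a1, Col3a1 and Col6a2) against 4.01% of all genes, and 2 lower (Col28a1 and Col24a1) against 3.13%. Col6a2 was near the threshold and with median centring, at 0.584, was no longer called untreated or in both pairs. In the treated pair 5 were higher (the same 4 and Col16a1) against 5.14%, and 2 lower (Col28a1 and Col23a1) against 3.0%. In both pairs 4 of 37 were higher and 1 lower, beside 2.60% and 1.65% of all. By more than 2 yardsticks in both pairs, 9 of 37 were higher, against 10.5% of all, and 2 lower (Col28a1 and Col23a1), against 8.71%. Within the 40% of genes with the highest mean the counts at 2 yardsticks were 9 and 1 of 19, against 13.9% and 11.9%. At 3 yardsticks Col28a1 alone was lower, 1 of 37 against 4.52% of all. Col3a1, Col11a1, Col4a1, Col18a1, Col16a1, Col6a1 and Col6a2 were higher by over 3 yardsticks in both pairs. The share of all kept genes was not computed for that direction, so whether the collagens exceed it cannot be said.

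Col28a1 encodes a collagen with von Willebrand factor type A domains that is found mainly around peripheral nerve. It measured 5.69 and 5.67 in Snail1-WT cells, and 4.36 and 4.33 in Snail1-KO cells, untreated and treated. Both Snail1-WT arrays lay far above both Snail1-KO arrays, and TGF-b1 made no visible difference. Snail1-KO minus Snail1-WT was -1.32 and -1.33, with the yardstick at 0.23. The Snail1-KO values are under 4.51, the lowest mean kept, so the gene passed the filter through Snail1-WT cells and the size of the difference is uncertain. In the gene order of GRCm38.p6 the kept gene next to it on one side, C1galt1, a galactosyltransferase of mucin-type glycosylation, was lower too, with differences of -1.001 and -0.75. The kept gene on the other side, Mios, differed by -0.37 and -0.16.

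Col11a1 was higher in Snail1-KO cells by 0.98 untreated and 1.15 treated, with the levels given above. Both Snail1-KO arrays exceeded both Snail1-WT arrays. Its kept neighbours Rnpc3 (-0.07 and -0.16) and S1pr1 (-0.35 and -0.64) differed the other way. Because type XI is a cartilage collagen, cartilage markers are given beside it. Of 8 markers 2 passed the filter, Sox9 and Sox5. Sox9, a regulator of cartilage genes, was bright and measured 10.01 and 10.90 in Snail1-WT and 9.65 and 11.29 in Snail1-KO cells. Its responses were 0.88 and 1.64 and its genotype differences -0.36 and 0.39, with the yardstick at 0.08. The sum of all 8 markers was 39.0 and 40.8 in Snail1-WT and 39.2 and 40.4 in Snail1-KO cells, untreated and treated. That sum adds log2 values, mostly of genes that did not pass the filter, so it does not measure cartilage marker content. The cartilage proteoglycan gene Acan, which did not pass the filter, stayed between 3.98 and 4.20, and Col2a1 between 5.39 and 5.57. Their part in the difference was not tested.

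The promoter windows of Col28a1, Col11a1 and Col16a1 are shown because the first pair differed most by genotype, in opposite directions, and Col16a1 alone among the members at least 1.5-fold apart with a window in the table holds CAGGTG, the E-box that Snail factors read. Capitals mark CAGGTG or its reverse complement CACCTG, and CAGAC or GTCTG. All are from RefSeq in GRCm38.p6 and end at the base before the start of a listed transcript, which in none of these genes is the gene's outer start. Col11a1 is at chr3:114030290-114030539 on the + strand, Col28a1 at chr6:8192618-8192867 on the - strand and Col16a1 at chr4:130047590-130047839 on the + strand.
Col11a1: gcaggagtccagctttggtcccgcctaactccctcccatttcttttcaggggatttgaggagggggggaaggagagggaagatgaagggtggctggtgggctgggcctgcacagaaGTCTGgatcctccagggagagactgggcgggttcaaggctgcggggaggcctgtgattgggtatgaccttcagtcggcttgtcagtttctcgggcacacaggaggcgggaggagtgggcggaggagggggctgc
Col28a1: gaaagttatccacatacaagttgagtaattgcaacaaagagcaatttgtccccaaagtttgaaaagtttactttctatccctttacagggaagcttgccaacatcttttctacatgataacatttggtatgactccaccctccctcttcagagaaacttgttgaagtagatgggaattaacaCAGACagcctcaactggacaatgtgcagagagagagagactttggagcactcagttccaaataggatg
Col16a1: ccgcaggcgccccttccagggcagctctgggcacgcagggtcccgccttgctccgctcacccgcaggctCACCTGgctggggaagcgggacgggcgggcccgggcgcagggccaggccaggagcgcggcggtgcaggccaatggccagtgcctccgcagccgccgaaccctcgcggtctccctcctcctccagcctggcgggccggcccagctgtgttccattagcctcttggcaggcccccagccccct

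The windows of Col11a1 and Col28a1 each held 1 CAGAC, starting 134 and 68 bases before the start, and no CAGGTG in these letters. Col16a1 held CAGGTG on the other strand at 181 bases. They also differed in composition, with 62.4% G and C in Col11a1, 40.4% in Col28a1 and 75.6% in Col16a1. Across the family, CAGGTG was in 4 of 38 windows (those of Col16a1, Col4a4, Col6a5 and Col8a1), or 10.5%, against 17.2% of all 32851 windows. Of the other 3 genes Col8a1 differed by 0.02 and 0.28 between the genotypes, and Col4a4 and Col6a5 did not pass the filter.

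Col3a1, whose product forms fine fibres in elastic tissues, measured 10.57 and 10.44 in Snail1-WT and 11.28 and 11.32 in Snail1-KO cells, untreated and treated. The genotypes did not overlap. The difference was 0.71 and 0.89, with the yardstick at 0.08. Its neighbour on chromosome 1, Col5a2, showed no such difference, as given above. Col1a2 was higher by 0.21 and 0.32, and by 0.24 and 0.45 on its dimmer probe set. Col24a1, a fibrillar collagen of developing bone, had the largest downward difference of the fibrillar genes. It measured 5.69 and 5.51 in Snail1-WT and 4.92 and 5.17 in Snail1-KO cells, so that the differences were -0.76 and -0.35, with a yardstick of 0.23.

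On chromosome 10, 3 genes of the family lie close together, Col6a2 next to Col6a1 and Col18a1 beyond 3 other measured genes, and all 3 were higher in Snail1-KO cells. Col6a2 measured 9.53 and 9.41 in Snail1-WT and 10.14 and 10.18 in Snail1-KO cells, a difference of 0.61 and 0.77. Col6a1 measured 10.38 and 10.35, then 10.79 and 10.93, a difference of 0.40 and 0.58, and 0.40 and 0.79 on its dimmer probe set, which takes the mean of both to 0.68 in the treated pair, past 1.5-fold. Col18a1 measured 5.92 and 6.14, then 6.71 and 6.83, a difference of 0.79 and 0.69. In each of the 3 the Snail1-KO arrays lay above the Snail1-WT arrays. The share of all kept genes with that order is not given here. The kept genes around them differed in both directions. Before Col6a2, Lss differed by 0.37 and 0.62 and Ftcd by -0.20 and -0.09. Between Col6a1 and Col18a1, Pcbp3 differed by -0.16 and 0.05, and the folate carrier gene Slc19a1 by -0.71 and -0.62. An effect on the whole stretch was not tested. Col6a3, on another chromosome, was higher by 0.16 and 0.11.

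In the remaining groups, Col4a1 was higher in Snail1-KO cells by 0.35 and 0.39, and Col4a2 by 0.24 and 0.52, both over 2 yardsticks in each pair. Col16a1 was higher by 0.52 and 0.61, while Col12a1 differed by -0.13 and -0.11. Of the transmembrane genes Col23a1, whose ectodomain can be shed from the cell surface, measured 6.60 and 6.92 in Snail1-WT and 6.14 and 6.06 in Snail1-KO cells. The differences were -0.46 and -0.86, with the yardstick at 0.17, and its genotypes did not overlap. Col13a1 (0.21 and 0.12) and Col17a1 (0.30 and 0.18) leaned the other way, within 2 yardsticks. The 24 kept members that the naming rule left out, Col4a1 and Col4a2 among them, ranged from -0.33 to 0.37 untreated and from -0.36 to 0.52 treated.

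**Figure D3:**
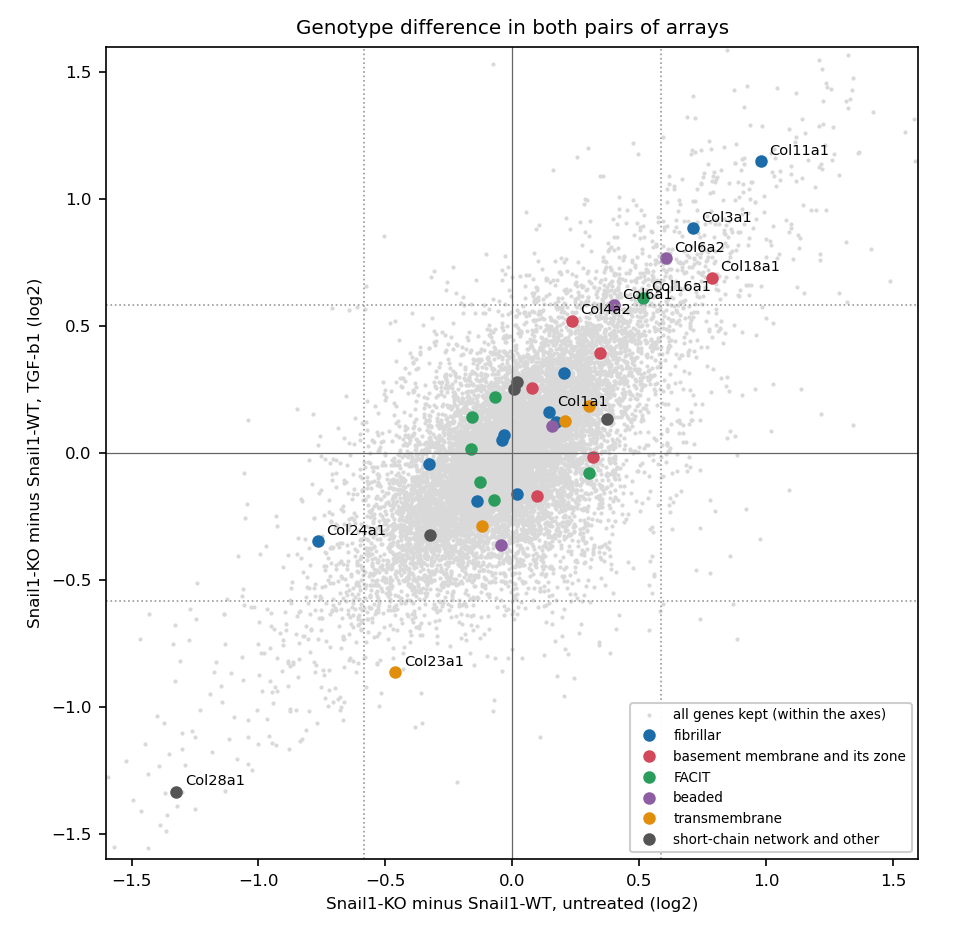
Snail1-KO minus Snail1-WT (log2) in untreated cells (horizontal) and TGF-b1-treated cells (vertical) for the 37 kept collagen genes coloured by kind. Grey points are the kept genes within the axes, and genes with larger differences are not drawn. Dotted lines mark 1.5-fold. Col28a1 lies alone at the lower left (-1.32 and -1.33), and Col11a1 at the upper right (0.98 and 1.15).

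Whether the response to TGF-b1 itself depended on genotype was read from the difference of both responses, Snail1-KO minus Snail1-WT. No kept member reached 1.5-fold, where 3.58% of all kept genes did, and the median was 0.02 over the members and 0.02 over all genes. The largest were Col24a1 (0.42, responses of -0.17 and 0.25) and Col23a1 (-0.40, responses of 0.32 and -0.08). Col8a1, a network collagen of vessel walls and the cornea, measured 9.15 and 9.15 in Snail1-WT and 9.16 and 9.43 in Snail1-KO cells, a difference of responses of 0.26. Col4a2 differed by 0.29. The 4 arrays hold 1 such value per gene, so none of these has a measure of its own error. The difference was below 0 for all 4 transmembrane genes, from -0.08 to -0.40, as it was for 46.4% of all kept genes, and apart from Col23a1 it was within 1 yardstick.

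Genes that make and trim collagen were taken from a list of 33, of which 30 were measured and 26 kept. Their median response was -0.002 in the Snail1-WT pair and -0.01 in the Snail1-KO pair, so the list as a whole did not shift with the collagens. A few members moved by more than any collagen. Tll1, a tolloid proteinase that trims procollagen, measured 4.62 and 6.18 in Snail1-WT and 3.84 and 5.32 in Snail1-KO cells. Its responses were 1.56 and 1.47, and Snail1-KO minus Snail1-WT was -0.78 and -0.86. The untreated Snail1-KO value is under 4.51, so the sizes are uncertain. Plod2, the lysyl hydroxylase of the collagen ends that prepares stable cross-links, measured 8.15 and 8.97, then 8.56 and 9.68. Its responses were 0.82 and 1.12, with the yardstick at 0.08.

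Furin, a convertase that activates pro-proteins, was higher after TGF-b1 by 0.65 and 0.77. Tll1 alone of the 26 was 2-fold apart in Snail1-WT cells, where 0.984% of all kept genes were, and Tll1 and Plod2 in Snail1-KO cells, against 1.31%. By more than 2 yardsticks in both responses, 6 of 26 were higher (P4ha3, Plod2, Bmp1, Tll1, Furin and Creb3l1) and 2 lower (P3h2 and Crtap), beside 5.91% and 4.97% of all kept genes. Within the 40% of genes with the highest mean, to which Tll1 does not belong, the shares were 8.12% and 6.81%. This list was chosen with earlier results of these data known, and the rule after the values were seen. The prolyl hydroxylase subunit gene P4ha3 differed by 0.57 and 0.39, and the procollagen C-proteinase gene Bmp1 by 0.39 and 0.46. P3h2, a prolyl 3-hydroxylase gene, differed by -0.48 and -0.50. The collagen chaperone gene Serpinh1 differed by 0.01 and -0.01.

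By genotype, Pcolce2, an enhancer of the C-proteinase, stood far from the rest of that list. It measured 5.93 and 6.38 in Snail1-WT and 7.59 and 7.61 in Snail1-KO cells. It was thus higher by 1.66 and 1.22, with the yardstick at 0.14, while its paralog Pcolce differed by -0.03 and 0.10. Pcolce2 was the only member of the 26 that was 2-fold apart in either pair, beside 1.57% of all kept genes untreated and 1.70% treated. More than 2 yardsticks higher in both pairs were 5 of 26 (Pcolce2, Plod2, Plod1, Fkbp14 and Mia3), and 5 were lower (Tll1, Furin, Creb3l1, Adamts14 and Serpinh1). Of all kept genes 10.5% were higher and 8.71% lower, and 13.9% and 11.9% within the 40% with the highest mean.

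Collagen receptors were taken from a list of 12, of which 11 were measured and 8 kept, with median responses of 0.27 and 0.45. Itga11, the alpha chain of a fibrillar collagen receptor of mesenchymal cells, measured 6.93 and 8.19 in Snail1-WT and 6.31 and 8.33 in Snail1-KO cells. Its responses were 1.26 and 2.01, and the difference between them, 0.76, was the only one of the 8 that reached 1.5-fold, as 3.58% of all kept genes did. Ddr1, a collagen-binding receptor tyrosine kinase gene, differed by 0.60 and 0.62, but by 0.32 and 0.22 when its 2 probe sets were averaged. Adgrg1, an adhesion receptor that binds type III collagen, differed by 0.98 and 0.74. With Cd44 (0.44 and 0.55), these made 4 of 8 over 2 yardsticks in both responses, and 0 were lower, beside 5.91% and 4.97% of all kept genes. Within the 40% of genes with the highest mean the shares were 8.12% and 6.81%. The list was chosen with earlier results of these data known, and the rule after the values were seen. The counts are therefore description only. For Itga1 the genotype difference was -0.82 untreated and -0.34 treated, and for Itga11 it was -0.62 and 0.14. These 2 of 8 were at least 1.5-fold lower untreated, against 3.13% of all kept genes. No receptor was 2-fold apart by genotype.

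**Figure D4:**
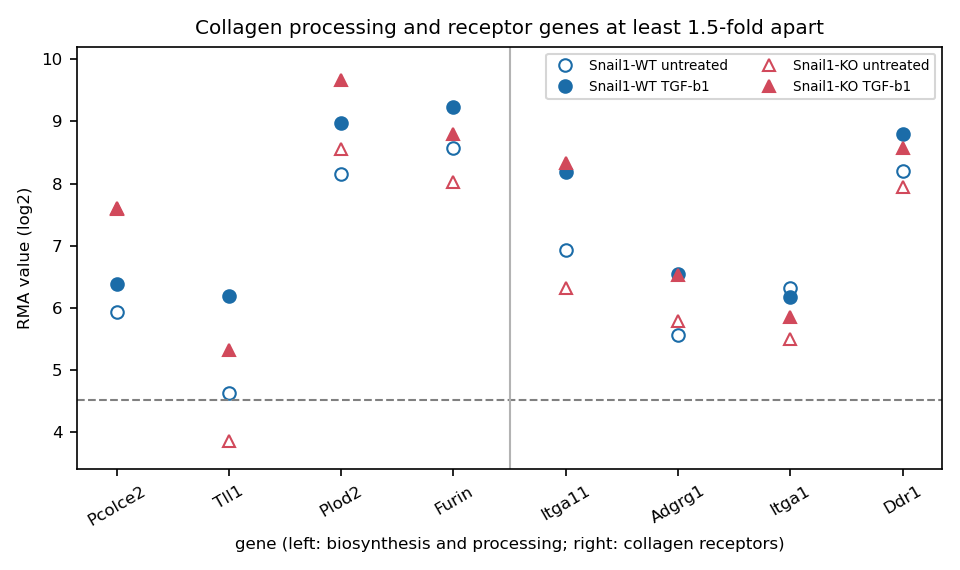
RMA values (log2, vertical axis) on the 4 arrays for the collagen processing genes (left) and collagen receptor genes (right) that were at least 1.5-fold apart in any comparison; symbols as in the plot of collagen levels, dashed line at 4.51. Pcolce2 separates by genotype, while Tll1, Plod2, Furin and Itga11 separate by treatment within each genotype.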

How the data were processed

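RNA of 4 samples was hybridised to Affymetrix arrays, 1 per group, after labelling with the WT PLUS kit, per the labels' protocols. The authors deposited log2 values. The submitters' processing notes name RMA and R 3.1.1. RMA brings the arrays close to a shared distribution, here with medians from 4.58 to 4.63, so it would hide a change common to most genes. No array coordinates were used, and their build was not given in the sources used here. The number of arrays limits the precision.

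Of 41345 probe sets, 23521 had 1 symbol in the platform annotation, 1814 several and 16010 none here. All 44 members matched RefSeq (GRCm38.p6) by Entrez identifier, which also gave the gene order. Fold thresholds were 2 and 1.5 (a log2 difference of 0.585). The yardstick is the median absolute deviation of the difference of responses, scaled to an SD and divided by the square root of 2, and was tested on simulated data. Values on all arrays are given for members at least 1.5-fold apart in any comparison and the 6 with the highest mean. Col5a1, Col5a2, Col6a3, Col4a1, Col4a2 and Col8a1 were added after their values were seen, as were the calls by yardsticks, the neighbouring and marker genes named singly and other list members under 1.5-fold. The members and lists were chosen with earlier results of these data known. Alternatives were keeping every gene, keeping 40%, a 1.5-fold threshold, the mean of probe sets, cyclic loess (limma 3.58.1 in R 4.3.3) and median centring. Other steps ran in Python 3.11.15 (pandas 2.3.3, numpy 2.4.6).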

Additional observations from a re-analysis of the deposited data

How the results depend on the processing

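No paired analysis was possible because each group held 1 array, and no model additive in genotype and treatment was fitted. Over the planned settings of filter, scaling and probe sets, the median of the kept collagen genes ran from 0.114 to 0.162 and from 0.074 to 0.198 in the Snail1-WT and Snail1-KO responses, and from 0.058 to 0.155 and from 0.061 to 0.281 in the untreated and treated genotype pairs. At 1.5-fold, of the 37 kept collagen genes 1 and 2 were called in the Snail1-WT and Snail1-KO responses. In the untreated and treated genotype pairs 6 and 7 were called, and 5 in both pairs. Of the 26 kept biosynthesis genes, 3 were then called in each response, 2 and 3 in the genotype pairs and 2 in both pairs. Of the 8 kept receptors, 3 were called in each response and 2 in the untreated genotype pair. Of all kept genes, 2.48% were higher and 1.89% lower in the Snail1-WT response, and 3.31% and 1.83% in the Snail1-KO response. In the untreated genotype pair these shares were 4.01% and 3.13%, and in both pairs 2.60% and 1.65%. Those of the treated pair are given above. With the filter at 40%, Col28a1 dropped out, which left 0 collagen genes 2-fold apart untreated, 1 treated and 0 in both pairs, and 1 instead of 2 lower by 2 yardsticks. Tll1 dropped out as well, which left 0 and 1 biosynthesis genes in the responses. The members lower in both genotype pairs were then 3 and those lower in both responses 0, or 2 with median centring. At 3 yardsticks, a threshold chosen after seeing the data like the yardstick calls themselves, 4 collagen genes were higher in both responses and 1 was lower in both genotype pairs. The genes higher in both genotype pairs at that threshold are named above. Cyclic loess gave 2 receptors in the Snail1-WT response, with Adgrg1 at 1.005, and took Col11a1 below 1.5-fold in the Snail1-KO response (0.573). Median centring took Col6a2 untreated to 0.584, just below 1.5-fold, and Col16a1 (0.606, Snail1-KO response) and Col6a1 (0.627, treated pair) above it. Values of single genes moved by more than a yardstick only with the mean of probe sets, in 12 values of Col1a2, Col5a1, Col6a1 and Ddr1.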
